A study of Mus musculus with 121 samples.

Results

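Proline-specific peptidases are enzymes that cut peptides next to proline, a residue whose ring protects the neighbouring bond from most other peptidases. The 10 genes described here are Pepd, Prep, Dpp4, Fap, Dpp7, Dpp8, Dpp9, Prcp, Xpnpep1 and Xpnpep3, taken by symbol out of 25759 genes counted in mouse liver and gonadal adipose tissue. Pepd encodes prolidase, the cytosolic metallopeptidase for dipeptides whose last residue is proline or hydroxyproline, and it thereby completes the breakdown of collagen peptides. The enzymes upstream of it shorten proline-containing peptides from either end or from within, and several of them also inactivate peptide hormones. The question put to the data was whether any of the 9 relatives of Pepd stood at another level where Pepd was lost.

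RNA was sequenced from C57BL/6 mice that were knockout (KO), heterozygous (HET) or wild type (WT) for the gene named PEP in the labels, read here as Pepd on background knowledge of this work. How the allele was made, and in which cells it is lost, is not given in the sources used here. From 8 weeks of age and for 18 weeks the mice ate HFD 45 %, a high-fat diet, or standard chow, or else an Alios diet or a Control diet, whose make-up the labels leave unstated. Liver came from 9 KO, 11 HET and 8 WT mice on HFD, 5, 8 and 5 on chow, 8, 5 and 6 on Alios, and 1, 4 and 5 on Control. Gonadal adipose tissue came from 9 KO, 11 HET and 8 WT mice on HFD and from 5, 8 and 4 (WT libraries 2 to 5) on chow, and 44 of the 76 mice gave both tissues. Total counts ran between 42692 and 8854246 in the 75 liver libraries (median 3191160, second lowest 1027087) and between 4236655 and 6699887 in the 45 adipose libraries. Mouse numbers on chow and HFD fall into a lower run, up to 400, and a higher run, and results are also given within these runs. Levels are CPM, counts scaled to a common library size, changes are given on the log2 scale with an SE or 95% interval, and a gene was called at a Benjamini-Hochberg adjusted p under 0.05 in edgeR's quasi-likelihood test over all genes.

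The tissues carried the markers of their labels. Summed over 8 hepatocyte markers, livers held 54223 to 145630 CPM, and over 8 adipocyte markers adipose libraries held 7568 to 68013 CPM. Adipose libraries of 3 chow mice (KO 1, HET 2 and WT 2) also held 15165, 17788 and 22375 CPM of epididymis markers, and 1 HFD library (WT 6) held 49185 CPM of hepatocyte markers. A mouse labelled HET on HFD had Pepd at 1.26 CPM in liver (library 8) and 21.8 CPM in adipose tissue (library 3), within the range of the KO libraries, and is called the mouse labelled HET below. The liver library with 42692 counts (Alios KO 8) held 1 read of Prep and none of Pepd or Prcp, and a count of 0 there allows up to 62.0 CPM.

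Of the 10 genes, 7 encode serine peptidases and 3, Pepd, Xpnpep1 and Xpnpep3, encode metallopeptidases. The coding sequence around the active-site serine is shown for Dpp4, Fap, Dpp8 and Dpp9, which form the 2 pairs with the highest coding identity. Near-identical stretches could let reads of one gene be counted for another. Each line is 36 bases of the coding strand (GRCm38, GENCODE M21 transcripts), 5′ to 3′, with the serine codon in capitals.
Dpp4: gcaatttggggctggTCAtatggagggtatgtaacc
Fap: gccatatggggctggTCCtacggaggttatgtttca
Dpp8: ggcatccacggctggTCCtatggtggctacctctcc
Dpp9: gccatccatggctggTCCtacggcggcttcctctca
Dpp8 and Dpp9 shared 30 of these 36 bases, Dpp4 and Fap 28, and Dpp4 and Dpp9 21. The 4 windows were found by a search of the coding strand for GGNTGG, a serine codon, a tyrosine codon and GGNGGN in a row, so that they share it was set by the search. In any frame of a protein-coding transcript, 6 of 21901 coding genes (0.027%) hold this pattern. Over the whole coding sequence Dpp8 and Dpp9 were identical at 61.2% of aligned bases, Dpp4 and Fap at 58.4%, Dpp7 and Prcp at 51.5%, and Pepd and Xpnpep3 at 47.3%. Against genes outside the family, 60 of 2918 windows of 50 bases in Prcp (2.06%) also occur in Gm26862. In each other member at most 0.316% of such windows occur in another gene, and in Pepd 0%. The longest stretch shared by any 2 of the 10 genes was 21 bases, between Dpp4 and Fap, shorter than the 50-base reads. It reads gactgggtttatgaagaggaa.

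Pepd (ENSMUSG00000063931, chromosome 7, 34912379 to 35044708, plus strand, GRCm38) was almost absent from KO livers. On chow it stood at 1.88, 0.478, 2.22, 0.578 and 3.09 CPM in the 5 KO livers, against 43.4, 41.5, 42.9, 50.4 and 41.7 CPM in the 5 WT livers. These KO levels rest on 17 reads in all, against 645 in WT, and every KO liver lay far below every WT liver. The fall was 28.9-fold (log2 -4.85 ± 0.38 SE, edgeR adjusted p = 1.01e-12), in a comparison that called 3.4% of all genes. On HFD the 9 KO livers held 0.87 to 2.87 CPM (median 1.76) and the 8 WT livers 44.2 to 64.0 CPM (median 53.2), with log2 -4.85 ± 0.24 and edgeR adjusted p = 7.01e-20 where 1.72% of genes were called. Alios livers held 2.18 ± 0.94 CPM in KO (SD, n = 8) and 41.0 ± 5.33 CPM in WT (n = 6), with log2 -4.00 ± 0.13 and edgeR adjusted p = 2.09e-19 where 0.224% were called. The single KO liver on Control stood at 2.09 CPM, below all 5 WT livers at 38.6 to 48.9 CPM, and entered no test.

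KO mice retained more Pepd mRNA in gonadal adipose tissue than in liver. On chow the level was 14.2, 25.1, 33.6, 6.71 and 9.34 CPM in the 5 KO mice, against 59.1, 101, 86.1 and 88.7 CPM in the 4 WT mice. The groups did not overlap, and the KO libraries themselves were spread out, with KO 3 highest and KO 4 lowest. The KO mean was 21.2% of the WT mean, against 3.75% in chow liver. On HFD it was 15.4 to 35.8 CPM (median 24.6) in 9 KO mice and 93.9 to 115 CPM (median 103) in 8 WT mice, or 24.5% of the WT mean against 3.37% in liver. The fall in KO adipose tissue was 4.69-fold on chow (log2 -2.23 ± 0.28, edgeR adjusted p = 1.14e-05, 15% of genes called). Its size differed between the runs of mouse numbers, with log2 -1.72 (edgeR adjusted p = 0.162) within the lower run and -3.43 (edgeR adjusted p = 1.76e-06) within the higher run, and this difference was not tested. On HFD it was 4.09-fold (log2 -2.03 ± 0.20, edgeR adjusted p = 2.13e-08, 0.0344% called). In a fit of both tissues with the mouse as a block, the KO effect on Pepd was 2.90 ± 0.27 log2 units smaller in size in adipose tissue than in liver (edgeR adjusted p = 1.17e-09, 0.463% of genes called). In bulk tissue, fewer cells that make an mRNA and less of it in each cell cannot be told apart.

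Heterozygous mice had intermediate Pepd, and no relative was called in them. In HET liver Pepd was at 44.3% of the WT mean with HFD, 50.3% with chow, 58.9% with Alios and 49.6% with Control. HET adipose tissue held 59.7% of the WT mean with HFD and 69.0% with chow. All 8 HET livers on chow lay at 19.9 to 25 CPM, below every WT liver. Pepd was the 1 of 9 tested genes called in HET liver in each of 3 diets, namely HFD (log2 -1.13 ± 0.17, edgeR adjusted p = 0.000378, 0.00904% of genes called), Control (log2 -1.02 ± 0.12, edgeR adjusted p = 2.55e-05, 0.00862% called) and Alios (log2 -0.72 ± 0.10, edgeR adjusted p = 0.00154, 0.00862% called). On chow log2 was -1.0 ± 0.21 with edgeR adjusted p = 0.122, where 0% of genes were called and 494 passed an unadjusted p under 0.05. Without the mouse labelled HET, which entered the same fit, Pepd was called there too (log2 -1.0, edgeR adjusted p = 0.000119). In HET adipose tissue log2 was -0.54 ± 0.24 on chow (edgeR adjusted p = 0.967, 0% called, 623 at an unadjusted p under 0.05) and -0.74 ± 0.19 on HFD (edgeR adjusted p = 0.489, 0.00688% called).

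**Figure D1:**
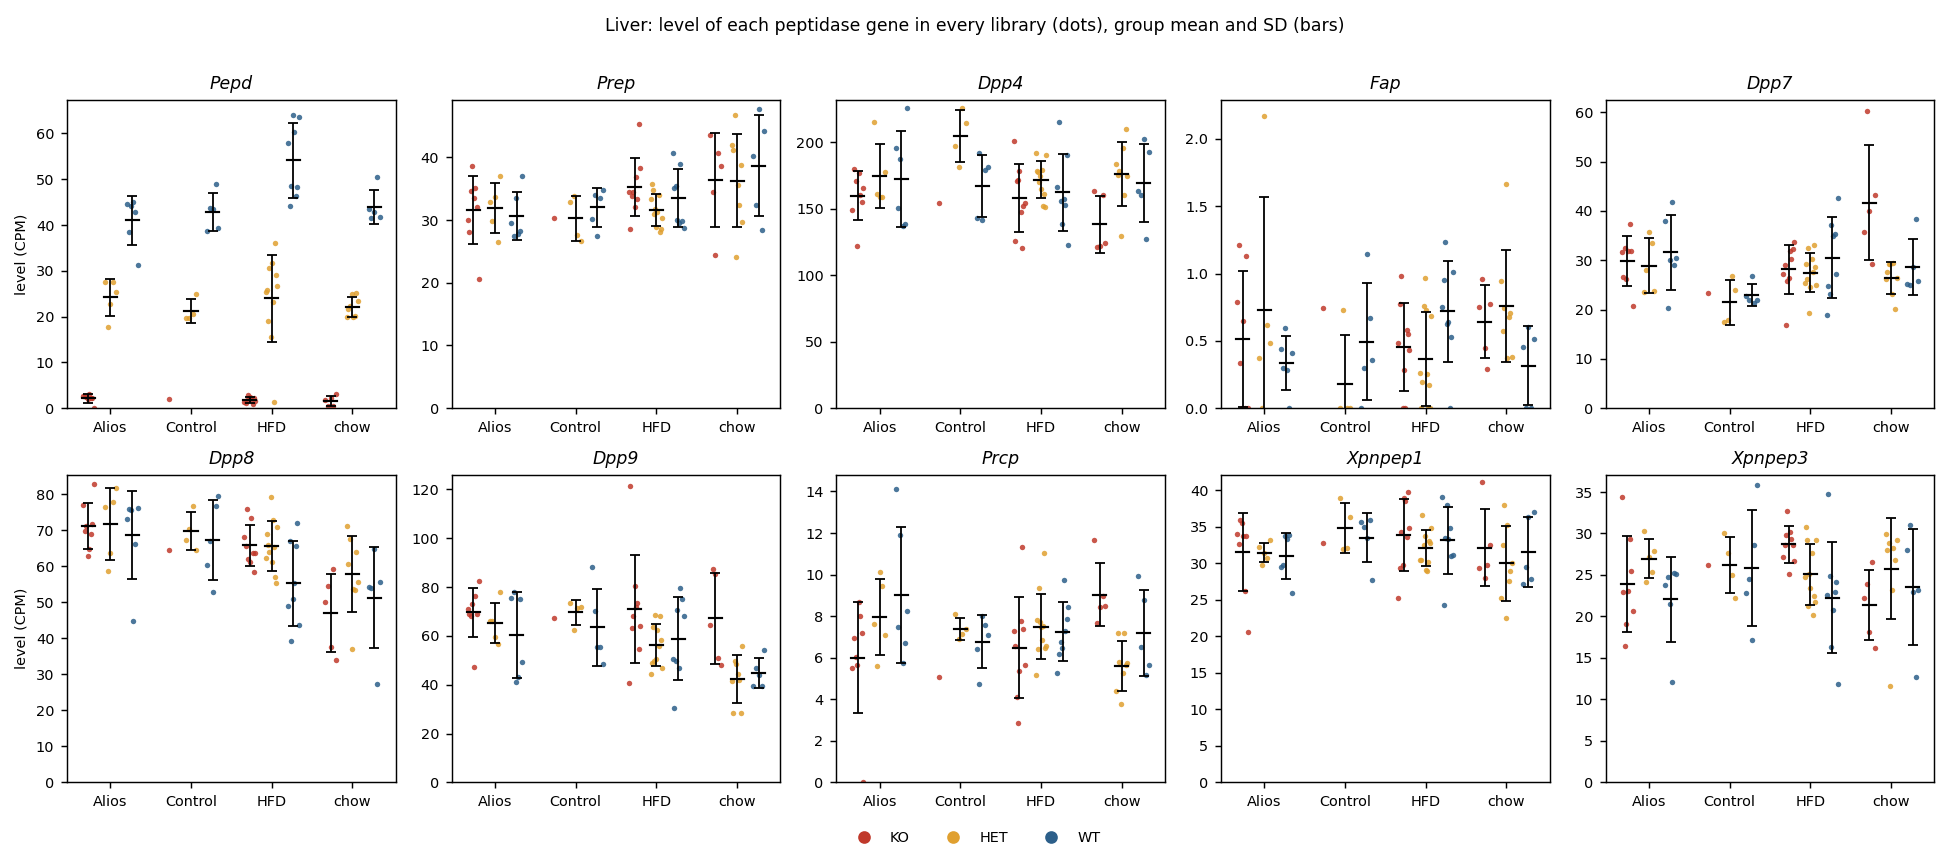
Level of each of the 10 genes in liver (CPM, linear axis from 0), 1 dot per library, with KO, HET and WT side by side within the Alios, Control, HFD and chow diets, and bars for the group mean and SD. In the Pepd panel KO, HET and WT form 3 steps on each diet, the chow means being 1.65, 22.1 and 44.0 CPM, with the mouse labelled HET among the KO values on HFD. In the other panels KO and WT overlap on each diet, while the chow KO values of Prcp, 7.65 to 11.7 CPM, lie above all 8 chow HET values, a pair of groups that was not tested.

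The family differed in level within each tissue when counts were divided by transcript length. In WT chow liver the order of CPM per kilobase was Dpp4 (32.1 ± 5.63, SD, n = 5), Pepd (23.4 ± 1.96), Dpp7 (17.0 ± 3.39), Dpp9 (13.3 ± 1.81), Dpp8 (10.7 ± 2.91), Xpnpep1 (7.74 ± 1.17), Xpnpep3 (3.89 ± 1.15), Prep (3.54 ± 0.74), Prcp (2.43 ± 0.70) and Fap (0.114 ± 0.106). Neighbours within an SD of each other were Dpp9 and Dpp8, and Xpnpep3 and Prep. In WT chow adipose tissue Pepd led at 44.6 ± 9.46 CPM per kilobase (n = 4), followed by Dpp7 (23.2 ± 6.56), Dpp9 (20.8 ± 1.09), Xpnpep1 (20.1 ± 3.11), Prcp (18.3 ± 7.77) and Dpp8 (16.6 ± 1.57), each within an SD of the next. Dpp4 (10.4 ± 6.74), Fap (7.25 ± 3.60), Xpnpep3 (5.43 ± 0.83) and Prep (4.91 ± 0.99) followed, again each within an SD of the next.

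Leaving Fap aside, adipose tissue differed from liver for 5 of 9 genes in WT mice, where 83.5% of all genes were called. Prcp, a lysosomal carboxypeptidase that removes the residue after a proline, was 4.56-fold higher (log2 2.19 ± 0.17, edgeR adjusted p = 2.81e-15). Dpp4, the membrane-bound dipeptidyl peptidase that inactivates incretin hormones, was 6.80-fold lower (log2 -2.77 ± 0.19, edgeR adjusted p = 3.00e-17). Xpnpep1 was higher (log2 0.41 ± 0.08, edgeR adjusted p = 6.47e-06), and Dpp9 (log2 -0.38 ± 0.11, edgeR adjusted p = 0.00121) and Prep (log2 -0.25 ± 0.09, edgeR adjusted p = 0.0079) were lower. Prep lost its call without adipose chow WT 4 (log2 -0.15, edgeR adjusted p = 0.13). Pepd did not pass, with log2 0.11 and an interval of -0.15 to 0.36. The median over all genes tested was log2 0.29 in this comparison, and the values given here are not set relative to it. Fap, a membrane serine peptidase of activated fibroblasts, averaged 0.182 to 0.759 CPM per group in liver, at most 6 reads in a library, and was not tested there. It entered the fit of both tissues through its adipose counts alone, so its levels are a description. WT adipose tissue held 23.7 ± 3.96 CPM of Fap on HFD (SD, n = 8) and 20.0 ± 9.90 CPM on chow (n = 4).

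**Figure D2:**
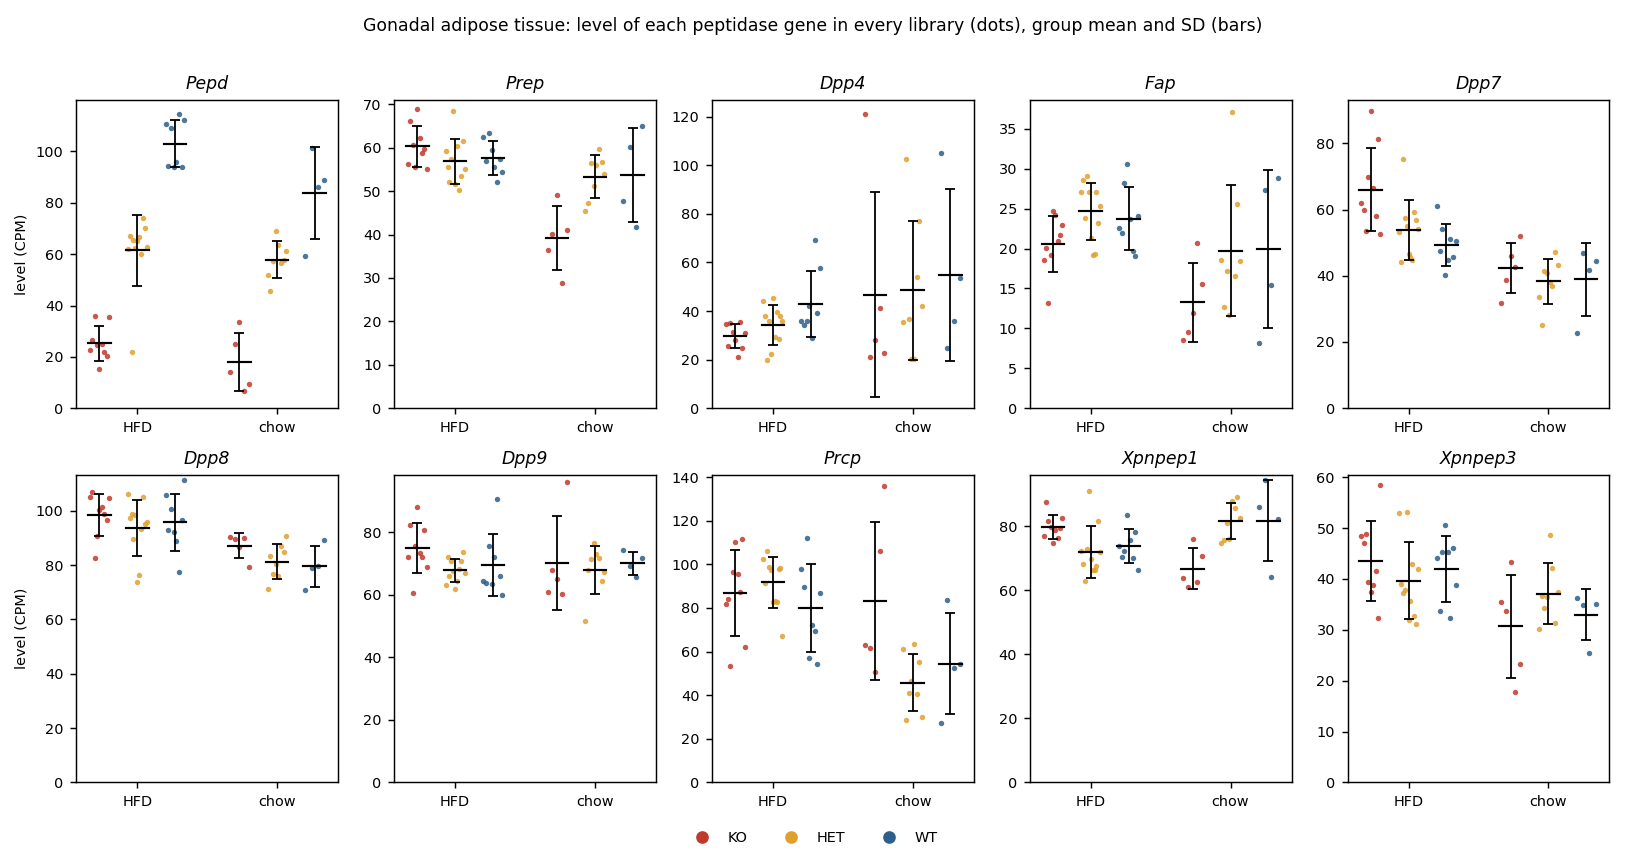
Level of each of the 10 genes in gonadal adipose tissue (CPM, linear axis from 0), 1 dot per library, with KO, HET and WT side by side on HFD and on chow, and bars for the group mean and SD. KO libraries lie below all WT libraries for Pepd on both diets, with the mouse labelled HET at 21.8 CPM among the KO values on HFD, and for Prep the 5 chow KO libraries at 28.9 to 49.2 CPM lie below all 9 HFD KO libraries, the lowest of which is at 55.1 CPM.

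In KO liver edgeR called 0 of the 8 relatives tested against WT on chow, on HFD or on Alios, and DESeq2 also called 0, while 2231, 1743 and 1684 of all genes on these diets passed an unadjusted p under 0.05 in edgeR. Their median log2 change was -0.01 on chow, against 0.01 over all genes, with 4 positive and 4 negative. On HFD the medians were 0.07 and -0.00, with 5 positive and 3 negative, and on Alios 0.05 and -0.01, again with 5 and 3. Summed over the 9 relatives, the level was 394 ± 36.9 CPM in KO and 395 ± 58.3 CPM in WT livers on chow (SD, n = 5 each), 428 ± 14.7 CPM in KO (n = 9) and 404 ± 36 CPM in WT (n = 8) on HFD, and 424 ± 19.0 CPM in KO (n = 8) and 426 ± 50.6 CPM in WT (n = 6) on Alios. KO and WT ranges of this sum overlapped on each of these diets. The sum is not scaled by transcript length, and changes of opposite sign cancel in it. In chow livers Dpp4 averaged 138 CPM in KO and 169 CPM in WT, Dpp9 67.2 and 44.7 CPM, and Dpp7 41.7 and 28.6 CPM.

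Among the dipeptidyl peptidases of the liver, Dpp9 and Dpp7 had the highest log2 changes of KO over WT on chow. Dpp9, a cytosolic enzyme that restrains inflammasome activation, stood at 64.3, 87.5, 85.2, 50.9 and 48.0 CPM in chow KO livers, against 39.4, 47.0, 43.8, 39.5 and 54.1 CPM in chow WT livers. Of the 5 KO livers 3 lay above every WT liver, and the other 2 lay below WT 5 alone. Log2 was 0.63 ± 0.22 (interval 0.18 to 1.08, edgeR adjusted p = 0.0988) on chow, and without KO 4 it passed (log2 0.72, edgeR adjusted p = 0.0404). The interval was -0.07 to 0.60 around 0.27 on HFD and -0.14 to 0.47 around 0.17 on Alios. HFD livers held 40.8 to 121 CPM in KO (median 68.3) and 30.4 to 79.6 CPM in WT (median 59.4), which overlap widely. Averaged over the 3 diets, Dpp9 was 1.27-fold higher in KO (log2 0.35 ± 0.10, interval 0.14 to 0.56, edgeR adjusted p = 0.0315), and it and Pepd were the 2 of 9 tested genes called, where 5.92% of all genes were. That call was lost in a fit of the KO and WT groups alone (log2 0.35, edgeR adjusted p = 0.0727), without chow KO 2 (log2 0.31, edgeR adjusted p = 0.0837), without chow KO 3 (log2 0.31, edgeR adjusted p = 0.0696) and without chow WT 1 (log2 0.33, edgeR adjusted p = 0.0524).

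Dpp7, a dipeptidyl peptidase of lysosomes and vesicles, had 35.7, 60.3, 39.9, 29.2 and 43.3 CPM in chow KO livers, against 25.1, 25, 28.7, 38.4 and 25.7 CPM in chow WT livers. All 5 KO livers lay above 4 of the 5 WT livers, WT 4 being the exception. Log2 was 0.55 ± 0.18 (interval 0.18 to 0.92, edgeR adjusted p = 0.0739), and Dpp7 was called without KO 1 (log2 0.61, edgeR adjusted p = 0.0468), KO 4 (log2 0.66, edgeR adjusted p = 0.0174) or WT 4 (log2 0.68, edgeR adjusted p = 0.0275). On HFD log2 was -0.15 (interval -0.42 to 0.13). Macrophage markers moved with these 2 genes on chow. Of 9 such markers 8 were called higher in chow KO livers, with sums of 431 to 1875 CPM (median 1131) in KO and a median of 347 CPM in WT, and KO 2, which had the highest Dpp7 and Dpp9, also had the highest sum. Hepatocyte marker sums were 54223 to 122360 CPM in chow KO livers and 100560 to 138900 CPM in chow WT livers. On HFD and on Alios 0 of the 9 macrophage markers were called by edgeR. Their part in the Dpp7 and Dpp9 values was not tested.

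None of the other liver relatives was called in these comparisons. Dpp4 averaged 138 ± 21.4 CPM in chow KO livers and 169 ± 29.7 CPM in chow WT livers (SD, n = 5 each), with log2 -0.26 (interval -0.52 to -0.00, edgeR adjusted p = 0.243), and it was called within the higher run of mouse numbers alone (log2 -0.68, edgeR adjusted p = 0.0285). Dpp8, a close cytosolic relative of Dpp9, averaged 65.8 ± 5.70 CPM in HFD KO livers and 55.3 ± 11.8 CPM in HFD WT livers (n = 9 and 8), with log2 0.26 (interval 0.01 to 0.50, edgeR adjusted p = 0.286). Xpnpep3, the mitochondrial aminopeptidase P, averaged 28.7 ± 2.20 CPM in HFD KO livers and 22.3 ± 6.68 CPM in HFD WT livers, with log2 0.38 (interval 0.09 to 0.68, edgeR adjusted p = 0.17). Prep, a cytosolic endopeptidase that cuts after proline inside short peptides, had an averaged log2 of 0.04 (interval -0.10 to 0.17) over the 3 diets. Xpnpep1, the cytosolic aminopeptidase P that removes the residue before a proline, had 0.05 (interval -0.06 to 0.17), and Prcp -0.09 (interval -0.32 to 0.13). That average of Prcp joined diets of opposite sign. On chow it averaged 9.04 ± 1.54 CPM in KO livers and 7.21 ± 2.07 CPM in WT livers (SD, n = 5 each), with log2 0.32 (interval -0.15 to 0.79, edgeR adjusted p = 0.454) and all 5 KO values above the WT mean. On Alios log2 was -0.37 (interval -0.75 to 0.00, edgeR adjusted p = 0.35), and without the smallest library log2 stayed at -0.37. The 8 KO values lay below the WT mean, but 1 of them was the count of 0 in that library, which allows up to 62.0 CPM. All 5 chow KO livers (11 to 31 reads each) also lay above all 8 chow HET livers (9 to 39 reads each, median 5.69 CPM). This pair of groups was not tested, and the share of all genes that separate it was not counted. On Control the single KO liver, at 5.07 CPM, lay below all 4 HET livers at 6.91 to 8.09 CPM. For Prep and Xpnpep1 the averaged intervals reached up to 1.13-fold higher levels in KO liver, which sets no limit for a single diet.

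**Figure D3:**
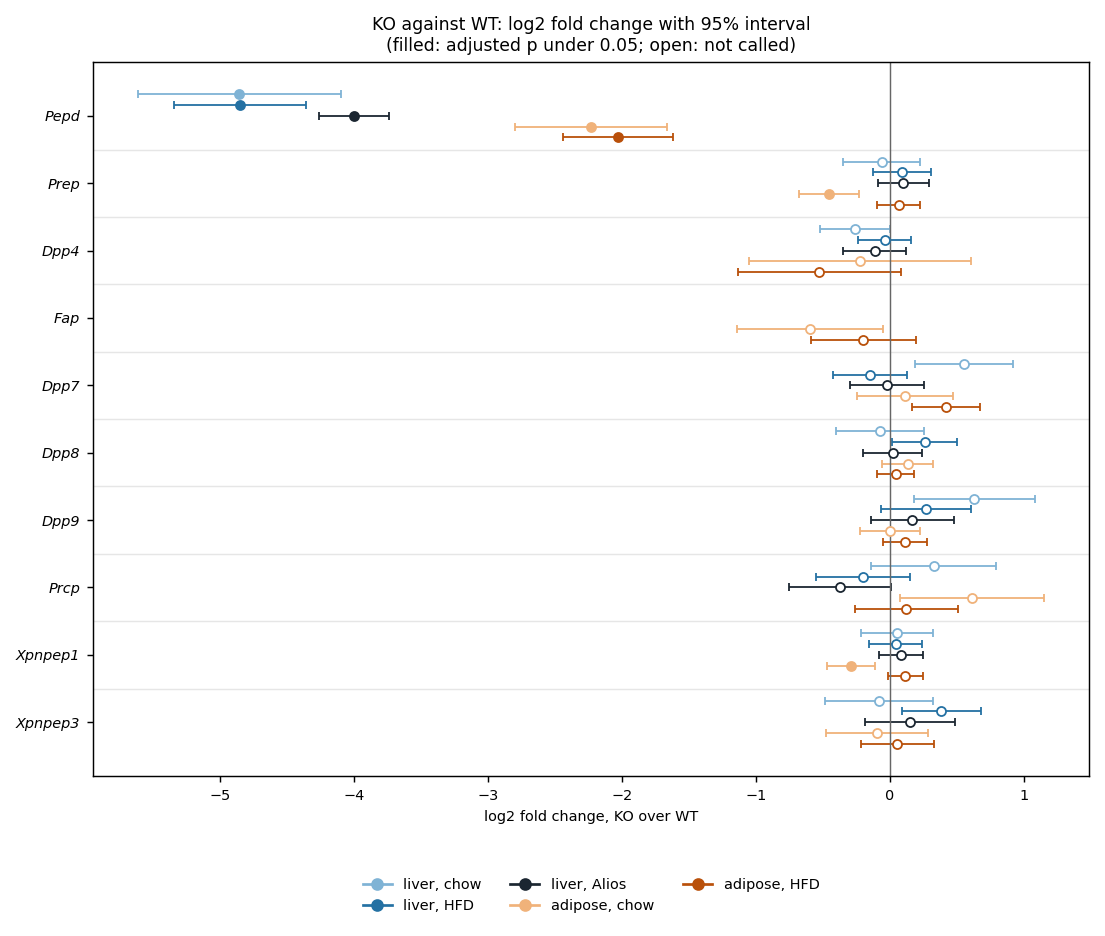
Log2 fold change of KO over WT with its 95% interval for each gene (rows), in liver on chow, HFD and Alios and in adipose tissue on chow and HFD. Filled points passed an adjusted p under 0.05: Pepd in all 5 comparisons, between -4.85 and -2.03, and in chow adipose tissue also Prep (-0.45) and Xpnpep1 (-0.29), both below 0.

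In adipose tissue on chow, 2 of the 9 relatives were called in KO mice, both lower. Prep stood at 36.4, 40.2, 49.2, 28.9 and 41.1 CPM in KO mice, against 47.7, 60.3, 41.7 and 65.1 CPM in WT mice. All 5 KO values lay below the WT mean, and KO 3 overlapped the 2 lowest WT libraries. The fall was 1.37-fold (log2 -0.45 ± 0.11, interval -0.68 to -0.23, edgeR adjusted p = 0.00468), against the 15% of all genes called in this comparison. Xpnpep1 stood at 63.9, 61.0, 75.9, 62.5 and 70.9 CPM in KO mice, against 86.0, 94.5, 64.3 and 82.5 CPM in WT mice. WT 4 fell among the KO values and the other 3 WT libraries lay above all of them. This was 1.22-fold lower (log2 -0.29 ± 0.09, interval -0.47 to -0.11, edgeR adjusted p = 0.0229).

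Both calls were lost in a fit of the chow KO and WT groups alone, where 0 genes were called by edgeR, Pepd among those lost (edgeR adjusted p = 0.319), with Prep at log2 -0.43 (edgeR adjusted p = 0.418) and Xpnpep1 at log2 -0.27 (edgeR adjusted p = 0.46). Within the lower run (3 KO, 2 WT) Prep was at log2 -0.36 (edgeR adjusted p = 0.293), and within the higher run (2 KO, 2 WT) at log2 -0.61 (edgeR adjusted p = 0.0165). Xpnpep1 was at log2 -0.43 (edgeR adjusted p = 0.208) in the lower and -0.14 (edgeR adjusted p = 0.415) in the higher run. Prep kept its call when each of the 9 libraries was left out in turn (edgeR adjusted p = 0.000265 to 0.0476). Xpnpep1 lost it without KO 4 (edgeR adjusted p = 0.0859), WT 2 (edgeR adjusted p = 0.0595), WT 3 (edgeR adjusted p = 0.126) or WT 5 (edgeR adjusted p = 0.0558), and without the 4 adipose libraries rich in epididymis or hepatocyte markers (log2 -0.25, edgeR adjusted p = 0.0953).

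Cell markers differed between these groups as well. In chow adipose tissue, 4 of 9 macrophage markers were called higher in KO mice, with sums of 2582, 2370, 1415, 3531 and 7711 CPM in KO and 716, 2879, 1461 and 1650 CPM in WT libraries. Adipocyte marker sums were 13850, 50150, 50450, 7568 and 15185 CPM in KO and 31500, 30850, 50630 and 41930 CPM in WT libraries. KO 4 and KO 5 combined the highest macrophage with low adipocyte sums. Their part in the Prep and Xpnpep1 values was not tested.

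Prcp ran the other way on chow. It stood at 63.0, 61.5, 50.5, 106 and 136 CPM in KO mice, against 27.3, 83.6, 52.5 and 54.3 CPM in WT mice, which overlap, and the 2 highest KO values belonged to the 2 libraries with the highest macrophage sums. Log2 was 0.61 ± 0.27 (interval 0.08 to 1.15, edgeR adjusted p = 0.106). It was called without KO 3 (log2 0.75, edgeR adjusted p = 0.0333), without WT 3 (log2 0.89, edgeR adjusted p = 0.0391) and within the higher run (log2 1.18, edgeR adjusted p = 0.00665). Fap averaged 13.3 ± 4.97 CPM in KO (SD, n = 5) and 20.0 ± 9.90 CPM in WT (n = 4), with log2 -0.60 (interval -1.14 to -0.05, edgeR adjusted p = 0.122), and was called without WT 2 (log2 -0.85, edgeR adjusted p = 0.0268). Dpp7 (0.11, interval -0.24 to 0.47), Dpp8 (0.13, -0.06 to 0.32), Dpp9 (0.00, -0.23 to 0.23) and Xpnpep3 (-0.10, -0.48 to 0.28) gave log2 changes whose intervals include 0. The chow median over the 9 relatives was -0.10, against -0.03 over all genes, with 3 positive and 6 negative.

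Dpp4 in adipose tissue was set apart by single libraries. KO 1, HET 2 and WT 2 on chow, the 3 libraries with over 10000 CPM of epididymis markers, held 121, 103 and 105 CPM of Dpp4, above every other adipose library. HFD WT 6, the library rich in hepatocyte markers, held 69.4 CPM, the highest on HFD. The chow log2 change of KO over WT was -0.22 with an interval of -1.05 to 0.61, the widest in the family. On HFD the mean was 29.7 ± 5.08 CPM in KO (SD, n = 9) and 42.8 ± 13.7 CPM in WT (n = 8), with log2 -0.53 (interval -1.13 to 0.08, edgeR adjusted p = 0.558). The part of this other tissue in the Dpp4 values was not tested.

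On HFD none of the 9 relatives was called in KO adipose tissue, where edgeR called 5 of all genes and 1521 passed an unadjusted p under 0.05. DESeq2 called none of the 9 either. Dpp7 had the largest positive change, with 52.7 to 89.7 CPM in KO mice (median 61.9) and 40.3 to 61.1 CPM in WT mice (median 49.0). KO and WT overlapped, with log2 0.42 ± 0.13 (interval 0.16 to 0.67, edgeR adjusted p = 0.293). Prep was at 60.4 ± 4.76 CPM in KO (SD, n = 9) and 57.7 ± 3.89 CPM in WT (n = 8), with log2 0.07 (interval -0.10 to 0.23). Xpnpep1 had log2 0.11 (interval -0.02 to 0.24). The 9 relatives together summed to 560 ± 36.4 CPM in KO and 535 ± 31.0 CPM in WT mice on HFD, and to 480 ± 44.9 CPM in KO and 486 ± 47.6 CPM in WT mice on chow, with overlapping ranges on both diets. Changes of opposite sign cancel in these sums too. Averaged over the 2 diets, Pepd was the 1 of 10 genes called (log2 -2.13 ± 0.17, edgeR adjusted p = 4.22e-11), where 10.2% of all genes were, and Prep was at -0.19 ± 0.07 (interval -0.33 to -0.06, edgeR adjusted p = 0.0564). Single chow libraries decided other averaged calls. Without KO 1, rich in epididymis markers, Dpp4 moved to log2 -0.74 (edgeR adjusted p = 0.0249), against -0.38 with it, and Dpp7 to 0.31 (edgeR adjusted p = 0.0497). Without KO 3, Prep was at -0.24 (edgeR adjusted p = 0.00778) and Prcp at 0.44 (edgeR adjusted p = 0.0475). Without WT 2, Prep was at -0.22 (edgeR adjusted p = 0.0463) and Fap at -0.53 (edgeR adjusted p = 0.032), and without WT 4 Prep was at -0.25 (edgeR adjusted p = 0.0146).

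The KO effect on Prep and on Xpnpep1 differed between the diets in adipose tissue. The HFD effect minus the chow effect was 0.52 ± 0.14 log2 units for Prep (interval 0.25 to 0.79, edgeR adjusted p = 0.0165) and 0.41 ± 0.11 for Xpnpep1 (interval 0.18 to 0.63, edgeR adjusted p = 0.0209), 2 of 10 genes where 6.33% of all genes were called. These differences use the same chow KO libraries as the chow comparison. Both were lost without chow KO 4 (Prep 0.43, Xpnpep1 0.38, edgeR adjusted p = 0.0677 for both), without WT 3 (0.46 and 0.33, edgeR adjusted p = 0.0598 and 0.0819), without WT 5 (0.42 and 0.40, edgeR adjusted p = 0.086 and 0.0505) and in a fit of the 4 compared groups (0.53 and 0.41, edgeR adjusted p = 0.0772 and 0.0584). For Prep the lower run gave 0.39 (edgeR adjusted p = 0.611) and the higher run 0.72 (edgeR adjusted p = 0.032), and for Xpnpep1 they gave 0.53 (edgeR adjusted p = 0.477) and 0.27 (edgeR adjusted p = 0.224). In liver the same difference was called for 0 of 9 genes, where 0.145% of all genes were called by edgeR (16 genes) and 2003 passed an unadjusted p under 0.05. Dpp7 came nearest there (log2 -0.70 ± 0.23, interval -1.16 to -0.24, edgeR adjusted p = 0.108), and it was called without chow KO 4 (-0.81, edgeR adjusted p = 0.0329) or chow WT 4 (-0.83, edgeR adjusted p = 0.0364).

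**Figure D4:**
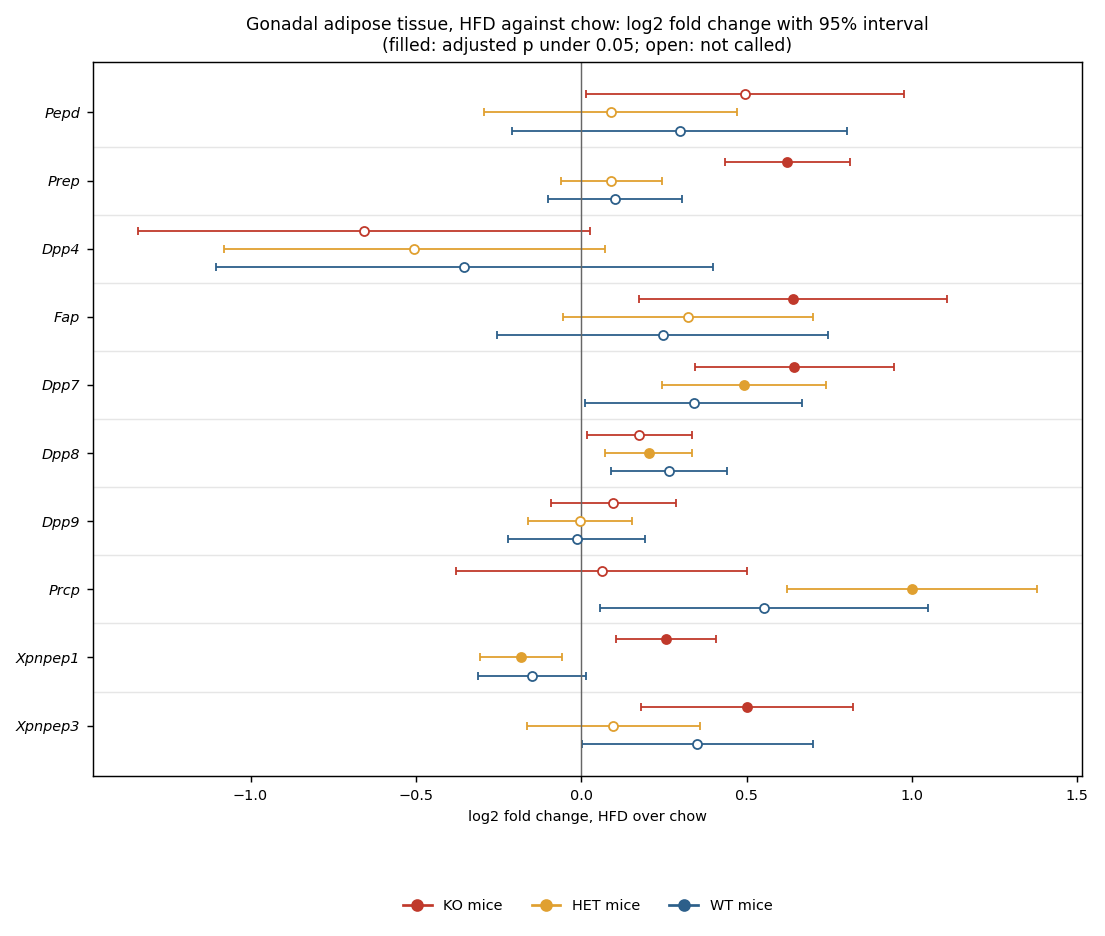
Log2 fold change of HFD over chow in gonadal adipose tissue with its 95% interval for each gene (rows), in KO, HET and WT mice. Filled points passed an adjusted p under 0.05: 5 genes in KO mice (Prep, Dpp7, Xpnpep1, Xpnpep3 and Fap, all above 0), 4 in HET mice (Prcp, Dpp7 and Dpp8 above 0, Xpnpep1 below) and none in WT mice.

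HFD against chow called members of the family in KO and HET adipose tissue, in comparisons that also called many genes overall. In KO mice 5 of the 10 genes were higher on HFD than on chow, where 35.5% of all genes were called. Prep was 1.54-fold higher (log2 0.62 ± 0.09, edgeR adjusted p = 4.76e-06), with 55.1 to 68.9 CPM on HFD (median 59.6, n = 9), and no HFD value within the chow range of 28.9 to 49.2 CPM. Dpp7 was 1.56-fold higher (log2 0.64 ± 0.15, edgeR adjusted p = 0.00095), at 52.7 to 89.7 CPM on HFD and 31.8 to 52.0 CPM on chow. Xpnpep1 (log2 0.26 ± 0.07, edgeR adjusted p = 0.00723), Xpnpep3 (log2 0.50 ± 0.16, edgeR adjusted p = 0.0124) and Fap (log2 0.64 ± 0.23, edgeR adjusted p = 0.0276) followed. Xpnpep3 lost its call without chow KO 4 (log2 0.36, edgeR adjusted p = 0.0823) or KO 5 (log2 0.42, edgeR adjusted p = 0.0539), and Fap without KO 1 (log2 0.52, edgeR adjusted p = 0.105) or KO 2 (log2 0.55, edgeR adjusted p = 0.0817). Prep and Dpp7 passed within both runs of mouse numbers, Xpnpep3 within the higher run, and Xpnpep1 and Fap within neither. Residual Pepd itself was 25.2 ± 6.70 CPM on HFD and 17.8 ± 11.3 CPM on chow in KO mice, log2 0.50 (interval 0.01 to 0.98), and it was called without chow KO 2 (log2 0.65, edgeR adjusted p = 0.0463), without KO 3 (log2 0.85, edgeR adjusted p = 0.00393) and in the higher run (log2 1.68, edgeR adjusted p = 4.69e-05). Adipocyte marker sums varied among the chow KO libraries, as given above, and their part in residual Pepd was not tested. Dpp9 was called without chow KO 5 (log2 0.24, edgeR adjusted p = 0.0362).

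In HET mice, where 34.4% of all genes were called, Prcp was 2.0-fold higher on HFD (log2 1.00 ± 0.19, edgeR adjusted p = 0.000119). It stood at 67.3 to 106 CPM on HFD (median 97.5, n = 11) and 28.7 to 63.5 CPM on chow (median 43.8, n = 8), with no overlap. Adipocyte marker sums of the HET mice had a median of 19771 CPM on HFD and 45719 CPM on chow, and macrophage sums of 3062 CPM on HFD and 1155 CPM on chow, and their part in the Prcp values was not tested. Dpp7 (log2 0.49 ± 0.12, edgeR adjusted p = 0.00217) and Dpp8 (log2 0.20 ± 0.07, edgeR adjusted p = 0.0146) were higher too, while Xpnpep1 was lower (log2 -0.18 ± 0.06, edgeR adjusted p = 0.0201). Prcp passed within both runs, Dpp7 in the lower run, and Dpp8 and Xpnpep1 in neither. In WT mice 0 of the 10 genes were called by edgeR, where 4.57% of all genes were, and DESeq2 called Dpp8 (adjusted p = 0.027). Dpp8 had log2 0.26 (interval 0.09 to 0.44, edgeR adjusted p = 0.0591), Prcp 0.55 (interval 0.06 to 1.05, edgeR adjusted p = 0.133) and Dpp7 0.34 (interval 0.01 to 0.67, edgeR adjusted p = 0.163). Dpp8 was called without chow WT 5 (log2 0.32, edgeR adjusted p = 0.0308) and Prcp without chow WT 3 (log2 0.86, edgeR adjusted p = 0.0325).

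Prcp and Dpp7 varied with the markers of several cell types across adipose libraries on HFD. Macrophage sums had medians of 3356 CPM in KO and 3001 CPM in WT mice on HFD, against 2582 CPM in KO and 1556 CPM in WT mice on chow. Adipocyte sums had medians of 20054 CPM in KO and 20459 CPM in WT mice on HFD, against 15185 CPM in KO and 36716 CPM in WT mice on chow. Over the 28 HFD libraries Prcp and the macrophage sum correlated with Pearson r = 0.917 and Spearman rho = 0.875 on the log2 scale (permutation p = 1e-05 for each, the smallest that 100000 permutations give, adjusted p = 0.00018 and 0.00036 over 36 relations, of which 14 passed by Pearson). The r was 0.892 without the 2 libraries farthest from the median, 0.909 in the 16 mice of the lower run and 0.972 in the 12 of the higher run. The share of all genes that would pass with these markers was not computed. With adipocyte markers Prcp ran the opposite way (r = -0.873, rho = -0.743, permutation adjusted p = 0.00018 and 0.00048, r = -0.814 without 2 libraries, -0.889 and -0.893 within the runs). Dpp7 and the macrophage sum gave r = 0.656 and rho = 0.661 (permutation adjusted p = 0.00114 and 0.0012, r = 0.668 without 2 libraries, 0.644 and 0.676 within the runs). Markers of adipose progenitors and fibroblasts gave r = 0.679 with Dpp7 and 0.682 with Prcp (rho = 0.666 and 0.661, permutation adjusted p = 0.00072 by Pearson and 0.0012 by Spearman for both), with 0.617 and 0.609 without 2 libraries, 0.593 and 0.646 in the lower run and 0.843 and 0.756 in the higher run. Dpp7 also ran against adipocyte markers (r = -0.572, rho = -0.463, permutation adjusted p = 0.00688 and 0.0394, r = -0.468 without 2 libraries, -0.593 and -0.566 within the runs). Xpnpep3 went with adipocyte markers (r = 0.65, rho = 0.75, permutation adjusted p = 0.00114 and 0.00048, r = 0.633 without 2 libraries, 0.556 and 0.782 within the runs). Dpp4 went with mesothelium markers (r = 0.646, rho = 0.54, permutation adjusted p = 0.00165 and 0.0122), and r fell to 0.492 without 2 libraries, with 0.667 and 0.714 within the runs. Also passing with progenitor and fibroblast markers were Prep (r = 0.596, permutation adjusted p = 0.00301), Dpp8 (0.49, 0.0255) and Dpp9 (0.537, 0.011). For Dpp9 this r was 0.869 in the lower run and 0.0361 in the higher run. Dpp9 went with macrophage markers (r = 0.473, permutation adjusted p = 0.0318), Xpnpep3 against them (-0.553, 0.00688), and Xpnpep1 with adipocyte markers (0.448, 0.0432).

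**Figure D5:**
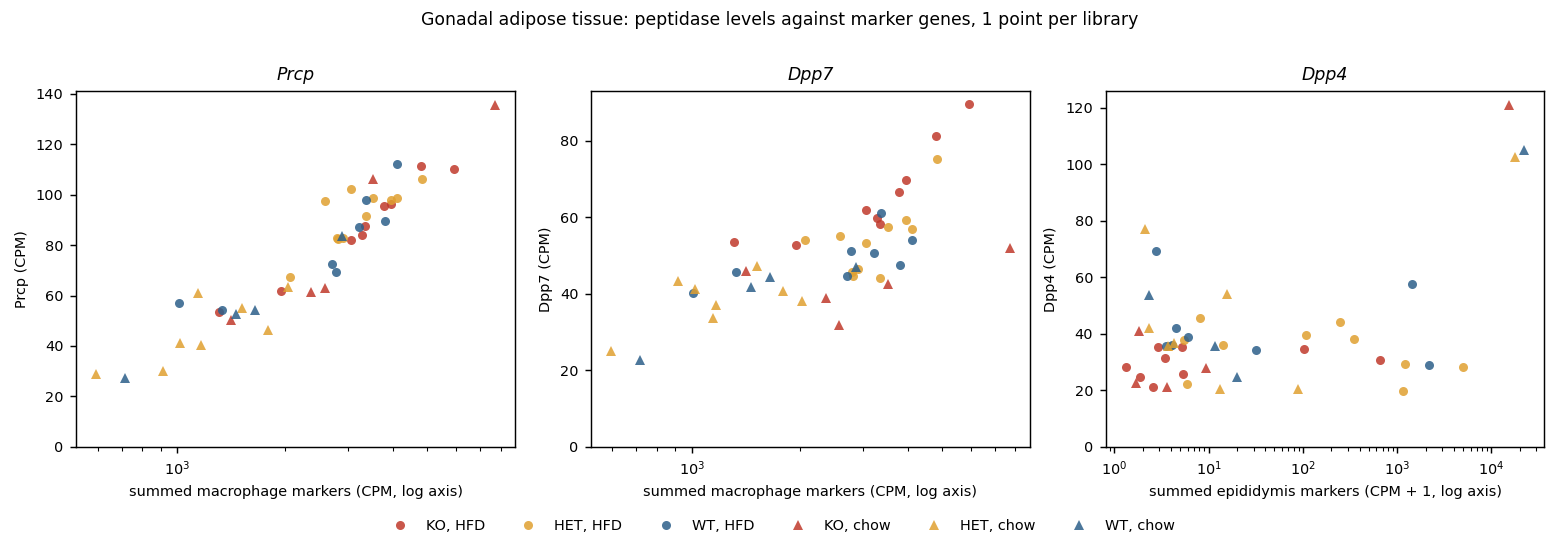
Level of Prcp and of Dpp7 against summed macrophage markers, and of Dpp4 against summed epididymis markers (CPM + 1), in gonadal adipose tissue, 1 point per library, circles for HFD and triangles for chow, with level in CPM on linear axes and marker sums on log axes. Prcp climbs with the macrophage sum (r = 0.917 over 28 HFD libraries), and the 3 chow libraries at the far right of the Dpp4 panel hold 103 to 121 CPM.

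In liver, HFD against chow called 2 members in KO mice and none in HET or WT mice. The difference between KO and WT mice in this is the difference of KO effects given above. In KO livers Dpp7 was 1.49-fold lower on HFD (log2 -0.58 ± 0.16, interval -0.89 to -0.26, edgeR adjusted p = 0.0147), at 16.8 to 33.6 CPM on HFD (median 29.0, n = 9) and 29.2 to 60.3 CPM on chow (n = 5). Dpp8 was 1.36-fold higher (log2 0.44 ± 0.14, interval 0.15 to 0.73, edgeR adjusted p = 0.0422), at 58.5 to 75.8 CPM on HFD (median 63.8) against 50, 54.5, 37.7, 59.3 and 34.0 CPM on chow. These 2 of 9 genes stand against 10.7% of all genes called. Dpp7 lost its call without chow KO 2 (log2 -0.41, edgeR adjusted p = 0.117) or KO 5 (log2 -0.55, edgeR adjusted p = 0.0513), and Dpp8 without KO 1 (log2 0.45, edgeR adjusted p = 0.0514), KO 2 (log2 0.49, edgeR adjusted p = 0.0596), KO 3 (log2 0.38, edgeR adjusted p = 0.146) or KO 5 (log2 0.37, edgeR adjusted p = 0.154). Within the lower run of mouse numbers neither passed (Dpp7 log2 -0.24, edgeR adjusted p = 0.638), and within the higher run Dpp7 did. The macrophage sums were 421 to 747 CPM in HFD KO livers, against 431 to 1875 CPM in chow KO livers.

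No member was called for diet in HET livers (14.2% of all genes called, 1574 genes by edgeR) or in WT livers (1.87%, 207 genes). Dpp9 had log2 0.39 (interval 0.07 to 0.72, edgeR adjusted p = 0.0962) and Prcp 0.40 (interval 0.06 to 0.74, edgeR adjusted p = 0.102) in HET mice. Alios against Control likewise called none in WT mice (0% of genes by edgeR, 976 at an unadjusted p under 0.05) or HET mice (0.19%). Dpp7 had the highest values there, with log2 0.46 (interval 0.15 to 0.77, edgeR adjusted p = 0.412) in WT and 0.48 (interval 0.12 to 0.84, edgeR adjusted p = 0.22) in HET mice.

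Other genes of peptide and proline turnover are given as counts, to be read against the share of all genes called, which in KO against WT was 3.4% in liver on chow, 1.72% on HFD and 0.224% on Alios, and 15% in adipose tissue on chow and 0.0344% on HFD. Of related families (tripeptidyl peptidases, Dpp3 and others) 0 of 4 tested were called in KO liver on chow, HFD or Alios and 0 of 6 in KO adipose tissue on either diet. Of other aminopeptidases and dipeptidases, 0 of 18 were called in chow liver and 1 of 18 in HFD liver, Anpep (log2 -0.37 ± 0.09, edgeR adjusted p = 0.0299), a membrane aminopeptidase. In chow adipose tissue 3 of 20 were called, Erap1 higher (log2 0.36, edgeR adjusted p = 0.0374), Dpep3 lower (log2 -2.18, edgeR adjusted p = 0.0311) and Metap2 lower (log2 -0.25, edgeR adjusted p = 0.0412), and on HFD 0 of 20. The chow count is at the share of all genes. Summed over 8 testis markers, chow adipose libraries held 0.165 to 68.7 CPM in KO mice (median 0.529) and 0 to 261 CPM in WT mice (median 99.6). The part of testis tissue in the Dpep3 value was not tested. Of proline-handling genes, 2 of 14 rose in chow KO liver, the peptide transporter gene Slc15a3 (log2 1.65 ± 0.37, edgeR adjusted p = 0.00772) and the proline synthesis gene Aldh18a1 (log2 1.70 ± 0.50, edgeR adjusted p = 0.0467). On HFD 1 of 14 rose in KO liver, the amino acid transporter gene Slc38a2 (log2 0.55 ± 0.14, edgeR adjusted p = 0.0283), and on Alios 0 of 15 were called. In chow KO adipose tissue 2 of 17 rose, P4ha1 (log2 0.66 ± 0.22, edgeR adjusted p = 0.04), a collagen prolyl hydroxylase subunit, and Pycr1 (log2 0.72 ± 0.24, edgeR adjusted p = 0.0412), which makes proline, and on HFD 0 of 17. In fits of the chow KO and WT groups alone, edgeR called 1 gene in liver, Pepd, and 0 in adipose tissue. All chow KO calls named in this paragraph were therefore lost there. Macrophage markers were also higher in the chow KO livers, as given above, and their part in the Slc15a3 value was not tested. On HFD against chow in KO adipose tissue 3 of 6 related-family genes were called, beside 35.5% of all genes, Tpp1 (log2 0.72 ± 0.12, edgeR adjusted p = 2.66e-05) and Tpp2 (log2 0.41 ± 0.12, edgeR adjusted p = 0.00966) higher and Xpnpep2 (log2 -1.55 ± 0.27, edgeR adjusted p = 2.99e-05), the membrane-bound aminopeptidase P, lower.

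Across all 75 liver libraries, the genes whose log2 level was most like that of Pepd were Sparcl1 (r = 0.76), Slco1a4 (0.68), Aqp4 (0.64), Mgst3 (0.64) and Slc16a5 (0.63), and the most opposite were Cyp2b10 (r = -0.86), Cyp2c29 (-0.74), Fcna (-0.70), Lad1 (-0.64) and Ldhd (-0.61). Across the 45 adipose libraries they were Cux2 (r = 0.79), Pla2g2e (0.77), Dclk3 (0.74), Klhl13 (0.74) and Gnao1 (0.74) at the high end and Gpr39 (r = -0.81), Olfr1033 (-0.79), Sfrp4 (-0.75), Rcn3 (-0.75) and Snx2 (-0.74) at the low end. These libraries differ by genotype, so the values describe the 3 steps of Pepd as much as any finer variation. None of the 9 relatives was among these genes.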

How the data were processed

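The authors deposited a table of raw counts for each tissue, with Ensembl genes as rows. Its values are whole numbers and the library totals differ. Per the labels' protocols, stranded libraries of polyadenylated RNA were read single-end over 50 bases. The submitters' processing notes name STAR 2.5.1b, featureCounts 1.5 and GRCm38.p5. How these were set, the strand option included, is not given in the sources used here, so overlapping and antisense reads cannot be told apart. Each table held 25759 genes, 25723 with a symbol in the annotation used and 36 without. Of 121 labelled samples 120 had a column, and 1 unlabelled column was left unused. P-values reflect variation between mice.

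The counts went into edgeR 4.0.16 (R 4.3.3) and its quasi-likelihood test with TMM scaling. Low counts were filtered (minimum count 10, minimum total 15). There were 5 fits, each over all its groups: liver on chow and HFD (11064 genes tested), liver on Control and Alios (11595), adipose tissue (14536), all liver groups for the average (12128), and both tissues with the mouse as a block (14679). P-values were two-sided and adjusted by Benjamini-Hochberg over all genes of a comparison. SE came from the fold change and its F statistic. CPM per kilobase used the length of the principal transcript. Correlations used log2(CPM + 0.5) and permutation. Sequences were aligned with mafft 7.526 and read with Python 3.11.15.

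The members, the gene lists and the tests were chosen with earlier results of these data known. Named genes were all 10 members, up to 3 called genes with the smallest adjusted p of each list, and the 5 genes most and least like Pepd in each tissue. Alternatives were DESeq2 1.42.0, other scaling, no filter, a fit of the compared groups alone, a replicate block, a covariate for the run of mouse numbers, an adjusted p under 0.01, fits without the mouse labelled HET or without the smallest liver library, and leaving out in turn each library of groups with 2 to 5. Fits within each run of mouse numbers and without 4 adipose libraries holding over 10000 CPM of epididymis or hepatocyte markers were added after the data were seen. The fitting was tested on simulated data. Intervals for counts of 0 cover counting error only.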

Additional observations from a re-analysis of the deposited data

Results flagged for a closer look

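The 10 genes in 15 groups of 4 to 10 libraries gave 150 sets tested for a library far from the rest, and 19 held one. Chance gives about 1 in 20 for independent sets, but these sets share libraries. In liver, Pepd was at 50.4 CPM in chow WT 4 and at 25 CPM in Control HET 4, each apart from its group. Pepd and Prcp were at 0.0 CPM in Alios KO 8, the library with 42692 counts, where a count of 0 allows up to 62.0 CPM, so that neither is shown to lie apart from the other KO livers. Fap stood high at 2.17 CPM in Alios HET 3, at 1.67 CPM in chow HET 4 and at 0.728 CPM in Control HET 2, levels of at most 6 reads.

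Dpp7 stood high in chow WT 4 (38.4 CPM) and Control WT 3 (26.8 CPM) and low in HFD KO 3 (16.8 CPM). Dpp8 stood low in Alios WT 4 (44.8 CPM) and chow WT 4 (27.4 CPM), and Xpnpep3 in Alios WT 4 (12.1 CPM) and chow HET 4 (11.7 CPM). Dpp9 stood low in Alios KO 5 (47.5 CPM) and high in HFD KO 2 (121 CPM). In adipose tissue, Dpp4 stood high in chow KO 1 (121 CPM), which also held 15165 CPM of epididymis markers. Dpp9 stood high in chow KO 5 (96.2 CPM), which held 7711 CPM of macrophage markers, and Xpnpep3 stood low in chow WT 4 (25.4 CPM).

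By the test of the difference itself, the KO effect differed between diets in adipose tissue for Prep (0.52 log2 units, HFD minus chow) and Xpnpep1 (0.41), and between tissues for Pepd (2.9, adipose tissue minus liver).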

How the results depend on the processing

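Over 236 log2 changes of the 10 genes and 3433 values of them under alternatives, none changed direction in a called value, 3318 kept their side of the threshold, 75 lost a call and 40 gained one. Pepd was called in KO against WT under every alternative in liver on chow, HFD and Alios and in adipose tissue on HFD. Limits are set by 4 or 5 KO or WT mice on chow, by reads of Pepd in KO liver (1 to 5 per chow library) and of Fap in liver, and by marker levels that differ between groups.

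Counts of called members moved by over 1.5 times as follows. At an adjusted p under 0.01, averaged KO liver gave 1, liver KO diet 0, adipose HET diet 2, adipose KO diet 3, and the adipose difference of KO effects 0. In a fit of the compared groups alone, averaged KO liver gave 1, chow HET liver 1, HFD HET liver 0, Alios HET liver 0, liver HET diet 1 (Dpp9), liver KO diet 1, chow KO adipose tissue 0 and the difference of KO effects 0. Chow HET liver also gave 1 (Pepd) with DESeq2, with no filter on low counts, and without the mouse labelled HET, and WT adipose diet 1 (Dpp8) with DESeq2. A covariate for the run of mouse numbers gave 2 in averaged KO adipose tissue (Pepd, Prep). Within the lower run, HFD HET liver gave 0, liver KO diet 0, chow KO adipose tissue 0, adipose HET diet 2, adipose KO diet 2 and the difference of KO effects 0. Within the higher run, chow KO liver gave 2, HFD HET liver 0, liver KO diet 1, averaged KO adipose tissue 2 and adipose HET diet 1. Without the 4 adipose libraries rich in other tissue, averaged KO adipose tissue gave 2 (Pepd, Fap) and the difference of KO effects 1 (Prep).

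Leaving out 1 library in turn gave 1 to 3 called members in chow KO liver, 1 to 2 in averaged KO liver, 0 to 2 in liver KO diet, 0 to 1 in the liver difference of KO effects, 2 to 4 in chow KO adipose tissue, 1 to 3 in averaged KO adipose tissue, 0 to 1 in WT adipose diet, 4 to 6 in adipose KO diet, 0 to 2 in the adipose difference of KO effects, and 5 to 7 between tissues with Fap counted.

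Replicate numbers shared between groups were not taken to pair the mice. Same-numbered deviations of KO and WT correlated over 0.1 in 4 of 6 pairs in Alios liver, 0 of 5 in chow and 1 of 8 in HFD liver, 2 of 4 in chow and 0 of 8 in HFD adipose tissue. In Alios liver the median r was 0.12 for same numbers and -0.02 for other numbers. In the other sets the median for same numbers did not exceed that for other numbers. With the replicate number as a block, averaged KO liver gave 1 called member and the adipose difference of KO effects 1, and the other counts stayed within 1.5 times over 23 comparisons, though members changed. Calls were lost for averaged Dpp9 (log2 0.34, edgeR adjusted p = 0.0595), Xpnpep1 in chow KO adipose tissue (-0.28, edgeR adjusted p = 0.0503) and in the difference of KO effects (0.39, edgeR adjusted p = 0.0504), and Dpp8 in liver KO diet (0.43, edgeR adjusted p = 0.0723) and adipose HET diet (0.17, edgeR adjusted p = 0.0606). Prcp gained one in liver KO diet (-0.69, edgeR adjusted p = 0.0484).

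Calls over all genes moved more. In chow KO liver the 3.4% of genes called came to 1 gene with the compared groups alone, 975 in the higher run and 22 to 1055 with a library left out, and in chow KO adipose tissue 2180 became 0, 4915 and 774 to 4210. The cause was not tested.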

Other observations

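Within liver, the levels of some members were correlated between mice of the same group. Over 73 libraries, as deviations from the group mean and without the smallest library and the single Control KO library, 12 of 28 pairs of members passed an adjusted p under 0.05 by permutation, 7 positive and 5 negative. The share over pairs of other genes was not computed, so this count is not shown to be particular to the family. Dpp8 and Xpnpep3 gave r = 0.722 and rho = 0.622 (permutation adjusted p = 9.33e-05 and 0.00014), with r = 0.633 without the 2 libraries farthest from the median and 0.755, 0.741 and 0.697 in the lower run, the Control and Alios mice and the higher run. Dpp4 and Dpp8 gave r = 0.601 and rho = 0.539 (permutation adjusted p = 9.33e-05 and 0.00014), with 0.552 without 2 libraries and 0.702, 0.567 and 0.416 in those sets. Dpp7 ran against Xpnpep3 (r = -0.413, rho = -0.38, permutation adjusted p = 0.00124 and 0.00588), with -0.442 without 2 libraries and -0.621, -0.369 and -0.151 in those sets.

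Some livers stood out in this pattern, chosen after their values were seen. Chow WT 4 held 27.4 CPM of Dpp8, 12.7 CPM of Xpnpep3 and 38.4 CPM of Dpp7, Alios WT 4 held 44.8, 12.1 and 41.9 CPM, and HFD WT 8 held 43.6, 11.8 and 42.6 CPM. In each, Dpp8 and Xpnpep3 were low and Dpp7 was high for the group.

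In adipose tissue 9 of 36 pairs passed over 45 libraries, 6 positive and 3 negative, again without a share over pairs of other genes. Prep and Xpnpep1, the 2 relatives called lower in chow KO mice, gave r = 0.646 and rho = 0.571 (permutation adjusted p = 0.00012 and 0.00096), with 0.635 without 2 libraries and 0.607 and 0.705 in the lower and higher run. Dpp7 and Prcp gave r = 0.649 and rho = 0.6 (permutation adjusted p = 0.00012 and 0.00018), with 0.544 without 2 libraries and 0.698 and 0.567 within the runs. These libraries differ in macrophage, adipocyte and progenitor markers, and the part of these in the correlations was not tested. Over the HFD libraries Prep had r = 0.0171 with adipocyte, 0.111 with macrophage and 0.596 with progenitor and fibroblast markers.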
